A study of Mus musculus with 8 samples.

Results

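MHC class I molecules show short peptides of the cell's own proteins at the cell surface, where CD8 T cells read them. The peptides are cut by the proteasome, pumped into the endoplasmic reticulum by the TAP transporter and loaded onto a heavy chain paired with beta-2 microglobulin. Interferon gamma exchanges the catalytic subunits of the proteasome for inducible ones, which makes the immunoproteasome. Here 10 genes of this pathway were examined in whole mouse lung, namely B2m, Tap1, Tap2, Tapbp, Psmb8, Psmb9, Psmb10, Psme1, Psme2 and Nlrc5. They were chosen by function, but with earlier results of these data known, so the set is not independent of the values. All 10 were measured, among 18820 genes with at least 1 probe set listed for a single gene symbol. Where a gene had several such probe sets (only Nlrc5, with 19), the one with the highest mean over the 8 arrays was used.

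The study asked how the NF-κB subunit p52 acts in airway epithelium, and 8 arrays read the RNA of whole lungs of FVB mice, each from a pool of 3 mice. The 4 conditions, with 2 pools each, were CCSP-p52 mice on dox with LPS, WT mice on dox with LPS, CCSP-p52 mice on dox only and WT mice on dox only. CCSP-p52 mice carry CCSP-rtTA and CCSP-tTS/(tet-O)7-FLAG-p52, so dox turns on FLAG-tagged p52 in cells that use the CCSP promoter, which are a part of the airway epithelium only, and mice of more than 1 founder line were used. WT mice were genotype-negative littermates, and they too drank dox at 2 g/L with 2% sucrose for 1 week. LPS, a bacterial cell wall component, was given into the trachea 48 hours before the lungs were taken, from mice aged 8 to 12 weeks with the sexes evenly mixed. Nothing says whether pools of 1 condition came from separate litters or days, so p-values measure the spread between these pools.

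All values are log2 expression values made by the authors with the Robust Multichip Average, and a difference of 1 is a 2-fold change. Array medians lay between 7.48 and 7.54, and the pools of a condition correlated at 0.981 to 0.996 (r across genes, which are not replicates). Of the epithelial markers, Scgb1a1 of club cells lay between 13.26 and 13.77 over the 8 arrays and Ager of alveolar cells between 12.18 and 13.19, while Scgb3a2, another airway gene, lay between 6.79 and 10.02. Nfkb2, the gene of p100 and p52, was at 11.28 and 10.53 in CCSP-p52 lungs with LPS and 10.83 and 10.56 in WT lungs with LPS, and at 10.20 and 10.33 in CCSP-p52 lungs on dox and 9.51 and 9.58 in WT lungs on dox. On dox only the genotypes thus did not overlap, while with LPS they did. Whether the Nfkb2 probe set also reads the FLAG-p52 transcript is not known, so the values cannot be assigned to the mouse's own gene. WT LPS pool 2 stood apart in markers of striated muscle and squamous epithelium, at a mean log2 value of 10.14 against 7.11 to 7.28 in the other LPS pools. That array was neither the highest nor the lowest of the 4 LPS arrays for any of the 10 genes.

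All 10 genes rose with LPS, by a median logFC of 1.23 (the log2 difference, with p52 as a second factor over all 8 arrays, n = 4 arrays per side). Each passed a Benjamini-Hochberg adjusted p under 0.05 from limma, the threshold used for calls here, as did 13.5% of all genes in the same direction, while 20.8% of all genes were called lower. The median over all genes was 0.0046. For each of the 10, all 4 LPS arrays lay above all 4 arrays without LPS, which held for 15.1% of all genes. For 7 of the 10 the logFC was at least 1, against 3.74% of all genes called at that size. With WT LPS pool 2 left out, all 10 remained calls and their median was 1.23. Leaving out CCSP-p52 LPS pool 2 instead gave a median of 1.34, again with all 10 called. The share of all genes called in either fit is not given here, so these counts do not set the 10 genes apart. In bulk lung RNA, fewer or more cells of a type and less or more RNA per cell cannot be told apart.

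**Figure D1:**
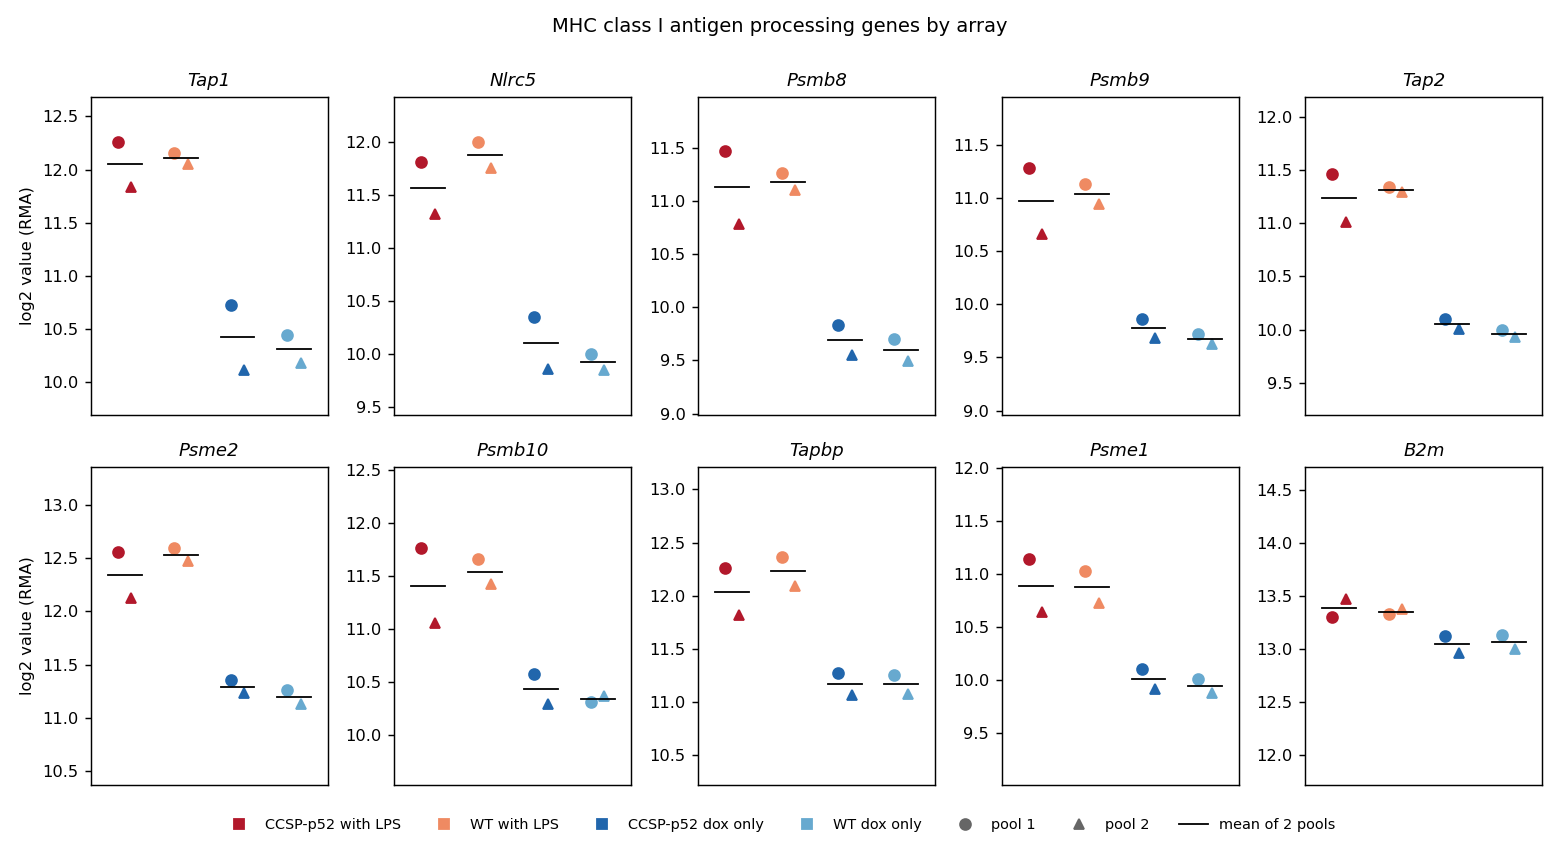
Log2 value of each of the 10 genes (y axis, RMA scale, 3 log2 units in every panel) on each of the 8 arrays, in order of LPS change. Circles are pool 1, triangles pool 2 and bars the mean of the 2 pools; for every gene the 4 LPS arrays lie above the 4 arrays without LPS, and CCSP-p52 LPS pool 2 is the lowest LPS array for 9 of 10.

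The inducible catalytic subunits were each higher with LPS in both genotypes. Psmb8, which encodes the subunit known as LMP7 or beta 5i, was at 11.48 and 10.78 in CCSP-p52 lungs with LPS and at 11.26 and 11.11 in WT lungs with LPS. Without LPS it was at 9.83 and 9.55 in CCSP-p52 lungs and at 9.70 and 9.49 in WT lungs. The lowest LPS array was thus 0.95 above the highest array without LPS, and the logFC was 1.51 (standard error 0.15, 2.85-fold, adjusted p = 3.67e-04 from limma).

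Psmb9, the LMP2 or beta 1i subunit, was at 11.29 and 10.66 in CCSP-p52 lungs with LPS and at 11.13 and 10.94 in WT lungs with LPS, against 9.86 and 9.69 in CCSP-p52 lungs and 9.72 and 9.62 in WT lungs on dox only. The groups were separated by 0.80 and the logFC was 1.28 (standard error 0.14, adjusted p = 4.38e-04 from limma). Psmb10, the MECL-1 or beta 2i subunit, had the narrowest separation of the 3, 0.48. It was at 11.76 and 11.06 in CCSP-p52 lungs with LPS and at 11.66 and 11.43 in WT lungs with LPS, against 10.58 and 10.30 in CCSP-p52 lungs and 10.31 and 10.37 in WT lungs on dox only. Its logFC was 1.08 (standard error 0.16, adjusted p = 0.00161 from limma).

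The subunits of PA28, a ring that caps the proteasome and opens its channel, rose as well. Psme1 (PA28 alpha) was at 11.14 and 10.64 in CCSP-p52 lungs with LPS and at 11.03 and 10.73 in WT lungs with LPS, against 10.11 and 9.92 in CCSP-p52 lungs and 10.01 and 9.88 in WT lungs on dox only. Psme2 (PA28 beta) was at 12.56 and 12.13 in CCSP-p52 lungs with LPS and at 12.59 and 12.47 in WT lungs with LPS, against 11.35 and 11.23 in CCSP-p52 lungs and 11.26 and 11.13 in WT lungs on dox only. The logFC was 0.90 for Psme1 (standard error 0.12, adjusted p = 0.00136) and 1.20 for Psme2 (standard error 0.11, adjusted p = 3.03e-04, both from limma). The Psme2 probe set shares transcript entries with a second probe set listed for both Psme2b and Psme2, so its signal cannot be assigned to Psme2 alone.

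Both subunits of the TAP transporter, which carries peptides across the membrane of the endoplasmic reticulum, rose. Tap1 had the largest logFC of the 10 in this model, and was at 12.26 and 11.84 in CCSP-p52 lungs with LPS and at 12.16 and 12.05 in WT lungs with LPS. Without LPS it was at 10.73 and 10.11 in CCSP-p52 lungs and at 10.45 and 10.18 in WT lungs, so that the groups were 1.11 apart. The logFC of Tap1 was 1.71 (standard error 0.15, 3.275-fold, adjusted p = 2.48e-04 from limma).

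Tap2 was at 11.46 and 11.01 in CCSP-p52 lungs with LPS and at 11.34 and 11.29 in WT lungs with LPS, against 10.10 and 10.01 in CCSP-p52 lungs and 9.9999 and 9.93 in WT lungs on dox only. It had the smallest p of the 10, and its logFC was 1.27 (adjusted p = 1.77e-04 from limma, standard error 0.10). Tapbp encodes tapasin, which bridges TAP and the empty class I molecule. It was at 12.26 and 11.82 in CCSP-p52 lungs with LPS and at 12.36 and 12.09 in WT lungs with LPS, against 11.27 and 11.06 in CCSP-p52 lungs and 11.25 and 11.08 in WT lungs on dox only. Its logFC was 0.97 (standard error 0.12, adjusted p = 9.43e-04 from limma).

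Psmb9, Tap1, Psmb8 and Tap2 stand next to each other in this order on chromosome 17, inside the MHC, and Psmb9 and Tap1 are read in opposite directions from starts that lie 225 bases apart. This stretch is shown because it lies upstream of both genes, which rose by 1.28 and 1.71. It is chr17:34187331-34187555 of GRCm38.p6, from RefSeq, on the plus strand, which is the strand of Tap1.
Tap1 and Psmb9: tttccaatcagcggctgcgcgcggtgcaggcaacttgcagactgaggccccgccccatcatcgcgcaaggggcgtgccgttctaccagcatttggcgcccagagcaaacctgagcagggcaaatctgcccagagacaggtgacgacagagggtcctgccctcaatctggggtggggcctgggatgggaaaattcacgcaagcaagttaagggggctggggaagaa
The reference table held a promoter of 8 of the 10 genes, all but Tap2 and Nlrc5, each from 250 bases before to 50 bases after the start. Both strands were searched for the ISRE of interferon-response factors (GAAANNGAAA), the interferon gamma element GAS (TTCNNNGAA, which reads the same on either strand) and the NF-κB motif kappaB. In 32851 promoters of this length, 3.44% held an ISRE, 8.30% a GAS and 4.51% a kappaB match. None of these was found in the windows of Tap1, Tapbp, Psmb9, Psmb10 and Psme2, which says only that these letters were not in the reference sequence. The sequence of the FVB mice was not read here and may differ.

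Matches were found in the windows of B2m, Psmb8 and Psme1. B2m and Psmb8 are shown because they had the smallest and the third largest LPS change of the 10, and capitals mark the matches. The B2m stretch, chr2:122147527-122147586 on the plus strand, holds an ISRE from -139 to -130 and a kappaB match from -126 to -117, counted from the start, which do not overlap. The Psmb8 stretch, chr17:34198065-34198124 on the plus strand, holds a GAS from -97 to -89.
B2m: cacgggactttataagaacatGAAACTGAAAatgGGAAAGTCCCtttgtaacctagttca
Psmb8: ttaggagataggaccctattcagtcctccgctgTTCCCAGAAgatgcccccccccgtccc
The match of Psme1 was an ISRE from 10 to 19 within its transcript. A match is a description of the letters, and whether any factor bound there was not measured.

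B2m, the light chain of class I molecules, had the smallest logFC. It was at 13.31 and 13.47 in CCSP-p52 lungs with LPS and at 13.33 and 13.37 in WT lungs with LPS, against 13.13 and 12.97 in CCSP-p52 lungs and 13.14 and 13.00 in WT lungs on dox only. The groups did not overlap but were only 0.17 apart. The logFC was 0.31 (standard error 0.075, 1.24-fold, adjusted p = 0.0139 from limma), and without WT dox pool 2 it was 0.29 with an adjusted p of 0.0535 and no longer a call.

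Nlrc5 encodes a transactivator that acts at the promoters of class I genes. It was at 11.81 and 11.32 in CCSP-p52 lungs with LPS and at 12.00 and 11.75 in WT lungs with LPS, against 10.35 and 9.86 in CCSP-p52 lungs and 10.003 and 9.85 in WT lungs on dox only. The groups were 0.97 apart, and the logFC was 1.70 (3.26-fold, standard error 0.17, adjusted p = 3.26e-04 from limma). The array reads Nlrc5 with 19 probe sets listed for it alone. All 19 rose with LPS, by 0.80 to 2.06 with a median of 1.63 and a highest adjusted p of 0.00178 from limma, and in all 19 the LPS arrays lay above the arrays without LPS. Probe sets of 1 gene share its transcripts and are not replicates. For p52 they gave a logFC between -0.10 and 0.15, and 0 of 19 were called.

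**Figure D2:**
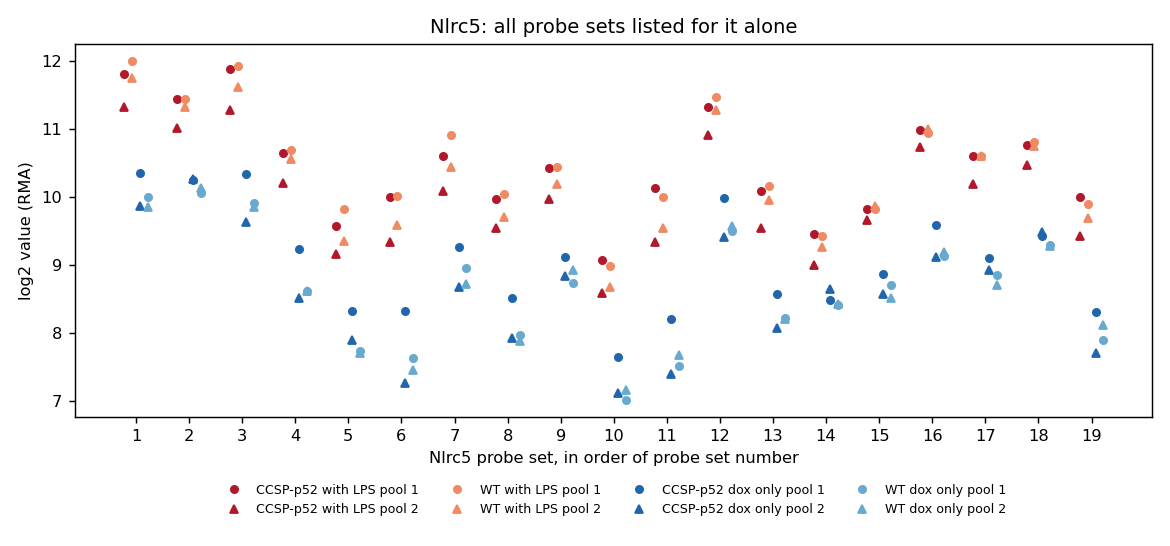
Log2 value (y axis, RMA scale) of the 19 probe sets of Nlrc5 (x axis, in order of probe set number) on the 8 arrays. Red and orange are lungs with LPS, blue shades lungs on dox only, circles pool 1 and triangles pool 2; in all 19 the LPS arrays lie above the others, and CCSP-p52 LPS pool 2 is the lowest LPS array.

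The order of the LPS changes was Tap1, Nlrc5, Psmb8, Psmb9, Tap2, Psme2, Psmb10, Tapbp, Psme1 and B2m. Each neighbouring pair was compared within arrays, by the difference of its log2 values with and without LPS, with an exact permutation test of 4 arrays against 4, two-sided, which cannot go below p = 0.0286. Over the 9 pairs, the difference did not overlap for Psmb8 against Psmb9, which changed by 0.23 more, and for Psme1 against B2m, by 0.59 more (exact permutation p = 0.0286 each, 0.129 after adjustment over 9 pairs). The other 7 pairs had an exact permutation p of 0.11 to 0.97 in this test, which used neither genotype nor the pool numbers as pairs. Neighbours were paired by the same LPS changes that the test compares, so small differences were built in. No conclusion is drawn from these p-values.

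The inducible catalytic subunits were then set against the subunits they replace, and the PA28 subunits against Psme3. Psmb5, Psmb6 and Psmb7, the constitutive catalytic subunits, also passed adjustment, at a logFC of 0.56 (standard error 0.074), 0.41 (standard error 0.11) and 0.47 (standard error 0.080). Within arrays, Psmb8 changed by 0.96 more than Psmb5, with a range over LPS arrays of 0.71 to 1.18 and over arrays without LPS of -0.14 to 0.14, both less the mean without LPS. Psmb9 changed by 0.88 more than Psmb6, with ranges of 0.79 to 0.93 and -0.09 to 0.11. Psmb10 changed by 0.61 more than Psmb7, with ranges of 0.31 to 0.86 and -0.14 to 0.20, the narrowest gap. Psme3, which encodes the nuclear activator PA28 gamma, was not called, at 0.18 (adjusted p = 0.243 from limma, standard error 0.11). Psme1 and Psme2 changed by 0.72 and 1.01 more than Psme3. None of these 5 differences overlapped between LPS arrays and the others, and each had the smallest two-sided exact permutation p that 4 arrays against 4 allow (0.0286, and 0.0286 after adjustment over 5). These tests were made with the genes' LPS changes known, and the pairs of Psme1 and Psme2 share Psme3. How often other pairs of genes do not overlap was not computed, so no conclusion is drawn from these p-values.

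**Figure D3:**
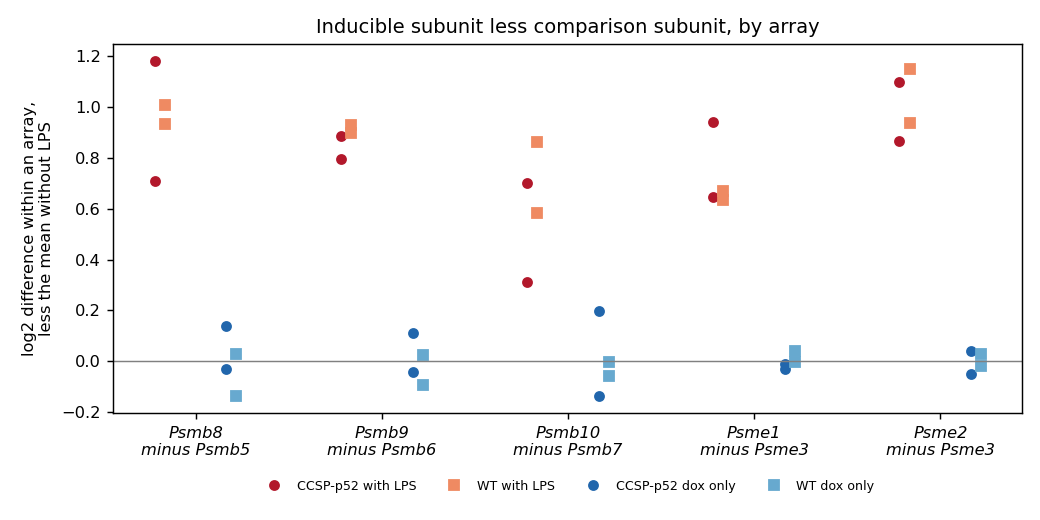
Difference of log2 values within an array between an inducible subunit and its comparison subunit, less its mean over the 4 arrays without LPS (y axis, log2 units), for 5 pairs (x axis). Each point is 1 array; the points with LPS lie at 0.31 to 1.18 and those on dox only between -0.14 and 0.20.

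Within each genotype the LPS change was called for 9 of the 10 genes. In CCSP-p52 lungs the median logFC was 1.12 and 4.31% of all genes were called higher, and in WT lungs the median was 1.35 and 8.07% were called higher (4-group limma model, n = 2 pools per group). B2m was the exception in both, at 0.34 (adjusted p = 0.0958 from limma) and 0.28 (adjusted p = 0.108 from limma). The counts depended on the dox pools. In CCSP-p52 lungs 1 of the 10 was called without dox pool 1, where 0.393% of all genes were called higher, and 0 without dox pool 2, where 0.170% were. In WT lungs 4 were called without dox pool 1, against 1.16% of all genes, and 2 without dox pool 2, against 0.680%. Such a fit has 1 pool in a group, whose spread is taken from the other groups. When 1 array at a time was left out, the median was between 0.86 and 1.365 in CCSP-p52 lungs and between 1.27 and 1.40 in WT lungs.

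No p52 difference of the 10 genes passed adjustment or a cut-off of a logFC of at least 0.41 in either direction with an unadjusted p of at most 0.05. In the model of all 8 arrays with both factors, the logFC of CCSP-p52 over WT lay between -0.09 for Tapbp and 0.04 for Psme1, with a median of 0.0062 and 95% confidence intervals within -0.45 and 0.38. Of all genes, 0.271% reached the cut-off there. None of the 10 had an unadjusted p under 0.05, and limma called 1 gene of 18820 at the adjusted threshold, against 435 at an unadjusted p under 0.05. The intervals allow differences of either sign up to these bounds, so they do not show that p52 left the genes unchanged.

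With LPS, the 10 genes had a median p52 logFC of -0.07, from -0.31 for Nlrc5 (standard error 0.22) to 0.03 for B2m (standard error 0.11). It was positive for 2 of the 10, against 50.9% of all genes, and 0 were at the cut-off, against 2.06% of all genes. The intervals lay within -0.82 and 0.49. For none of the 10 were both CCSP-p52 pools above or both below the WT pools, which was so for 15.3% and 16.0% of all genes. This comparison turned on single pools. Without CCSP-p52 LPS pool 1 the median was -0.39 and 3 genes were at the cut-off, namely Nlrc5 at -0.55, Psmb10 at -0.48 and Tapbp at -0.41, while 14.8% of all genes were at it in that fit. Without CCSP-p52 LPS pool 2 the median was 0.15 and 0 were at the cut-off, against 3.89% of all genes.

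On dox only, 9 of the 10 had a positive p52 logFC, as did 48.8% of all genes. The median of the 10 was 0.10, with a range of -0.02 for B2m to 0.17 for Nlrc5 (standard error 0.22) and intervals within -0.45 and 0.69. None reached the cut-off, which 0.733% of all genes did. For Tap2 alone, the CCSP-p52 pools were both above the WT pools, at the values given above, which was so for 16.5% of all genes. They were both below for none of the 10, against 16.2% of all genes. Without CCSP-p52 dox pool 1 the median was -0.05. The difference between the p52 effects with and without LPS had a median of -0.17 and the lowest unadjusted p was 0.16, for Nlrc5 at -0.48 (standard error 0.31), so 0 of 10 were called. No gene of the 18820 was called for p52 with LPS, without LPS or for this difference, while 1293, 326 and 945 had an unadjusted p under 0.05 (limma).

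**Figure D4:**
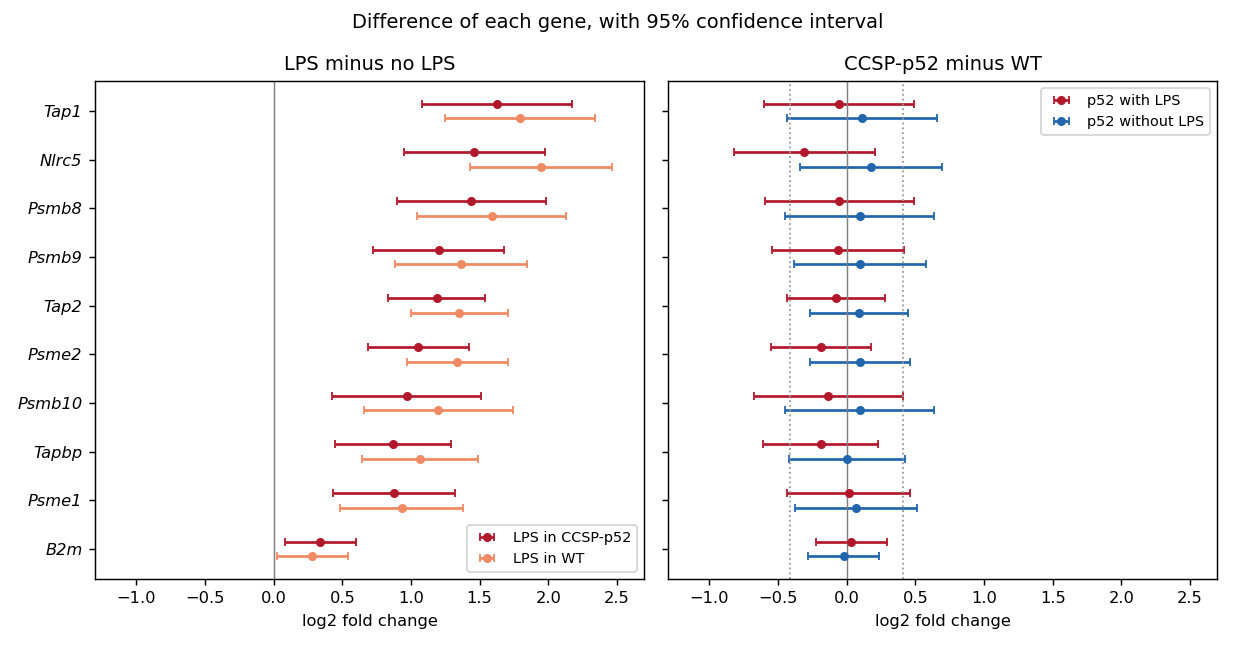
Log2 fold change (x axis) of the 10 genes for LPS in CCSP-p52 and WT lungs (left) and for CCSP-p52 over WT lungs with and without LPS (right), from the 4-group limma model with n = 2 pools per group. Bars are 95% confidence intervals and dotted lines a logFC of 0.41 in either direction; all LPS intervals lie above 0 and all p52 intervals include 0.

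The 10 genes varied together between the pools of a condition. Pool 1 was above pool 2 for 9 of 10 in CCSP-p52 lungs with LPS, 9 in WT lungs with LPS, 10 in CCSP-p52 lungs on dox and 9 in WT lungs on dox, by a median of 0.47, 0.17, 0.20 and 0.13, while the median over all genes was -0.013 to 0.035. CCSP-p52 LPS pool 2 was the lowest of the 4 LPS arrays for 9 genes and for all 19 probe sets of Nlrc5, and the highest for B2m. CCSP-p52 dox pool 1 was the highest array without LPS for 9 genes and for 16 of the 19. Genes of 1 array share their mice, so these counts describe arrays and are not tests.

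The gene of interferon gamma, Ifng, the cytokine that induces this pathway, was also low in CCSP-p52 LPS pool 2. It was at 10.35 and 8.64 in CCSP-p52 lungs with LPS and at 9.97 and 9.45 in WT lungs with LPS, against 6.60 and 6.66 in CCSP-p52 lungs and 6.45 and 6.38 in WT lungs on dox only. The LPS pools thus differed among themselves more than for any of the 10 genes and lay above all dox pools, and the LPS change was 3.08 (adjusted p = 4.39e-04 from limma, standard error 0.33). The mean log2 value of 9 monocyte and macrophage markers was 10.02 and 9.44 in CCSP-p52 lungs with LPS and 10.06 and 9.81 in WT lungs with LPS. That of 8 endothelial markers ran the other way, at 10.95 and 11.71 in CCSP-p52 lungs with LPS and 11.11 and 11.33 in WT lungs with LPS. The part of these cells and of Ifng in the pool differences was not tested.

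Cell type markers moved with LPS as well, and the counts that rose stand beside 13.5% of all genes called higher. Of 8 neutrophil markers 8 rose, by a median logFC of 3.63, with array means of 10.69 to 11.33 with LPS and 7.17 to 7.735 without. Of 9 monocyte and macrophage markers 7 rose (array means of 9.44 to 10.06 with LPS and 8.10 to 8.46 without), among them Adgre1 by 3.05 (standard error 0.26) and Itgam by 2.97 (standard error 0.22). Mrc1 and Siglecf of the same list were not called, at a logFC of -0.27 (standard error 0.31) and -0.04 (standard error 0.085). Of 13 T and NK cell markers 6 rose, with overlapping array means of 7.78 to 8.50 with LPS and 7.18 to 7.855 without. These were NK and cytotoxic genes, namely Gzmb, by 1.74 (standard error 0.25), Nkg7, by 1.55 (standard error 0.28), Klrk1, Gzma, Prf1 and Ncr1. The NK cell gene Klrb1c was not called, at a logFC of -0.10 and log2 values of only 4.52 to 5.01. The T cell genes Cd3d, Cd3e, Cd3g, Cd4, Cd8a and Cd8b1 were not called, at a logFC between -0.19 for Cd4 and 0.39 for Cd8a. Against the 20.8% of all genes called lower, 3 of 6 B cell markers fell and 7 of 8 endothelial markers fell, with the endothelial receptor genes Kdr and Tek at a logFC of -1.42 each. Of 9 dendritic cell markers 2 rose and 4 fell, of 11 alveolar markers 1 rose and 5 fell, and of 5 airway markers 2 fell. Their part in the rise of the 10 genes was not tested.

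Among regulators of the pathway, 12 of 17 rose with LPS and 0 fell, against 13.5% of all genes called higher and 20.8% called lower. Beside Ifng, they include Socs1, a feedback inhibitor of cytokine signalling, by 2.16, Irf1 and Irf8, interferon regulatory factors, by 1.38 (standard error 0.14) and 1.27 (standard error 0.13), and Stat2 by 1.17 (standard error 0.083). Irf1 was at 12.30 and 11.76 in CCSP-p52 lungs with LPS and at 12.33 and 12.08 in WT lungs with LPS, against 10.90 and 10.69 in CCSP-p52 lungs and 10.70 and 10.65 in WT lungs on dox only, with the same pool lowest. Nfkb2 rose by 0.89 (standard error 0.18). The 5 that were not called were Ifngr1 at -0.17, Ifngr2 at 0.38, Jak1 at 0.05, Rfxap at -0.12 and Rela at 0.21.

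Of 15 class I heavy chains and class I-like genes, 7 rose, against 13.5% of all genes called higher, and 3 fell. Their median was 0.15, and the share that fell was near the 20.8% of all genes called lower. H2-K1, a classical class I chain, was at 12.52 and 12.28 in CCSP-p52 lungs with LPS and at 12.42 and 12.39 in WT lungs with LPS, against 11.96 and 11.82 in CCSP-p52 lungs and 11.90 and 11.79 in WT lungs on dox only. Its logFC was 0.54 (standard error 0.079, adjusted p = 0.00178 from limma), larger than that of B2m and smaller than those of the other 9 genes. H2-T10 rose by 0.85 (standard error 0.13) and the CD1 gene Cd1d1, whose product presents lipids, by 0.96 (standard error 0.18). The H2 genes have near-identical copies, so their probes may read more than 1 of them, and H2-D1, H2-Q4, H2-Q7 and H2-T22 were not analysed here. The 3 that fell were Hfe, which acts in iron balance, by 0.62 (standard error 0.088), Mr1, which presents vitamin metabolites, by 0.61 (standard error 0.099), and Fcgrt, the neonatal Fc receptor, by 0.57 (standard error 0.084).

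Other steps changed in part, and the counts that rose stand beside 13.5% of all genes called higher with LPS. Of 10 genes of peptide loading and trimming in the endoplasmic reticulum 5 rose and 0 fell, led by Tapbpl, a tapasin relative, at 1.06 (standard error 0.17), with Erap1, the trimming peptidase, at 0.48 (standard error 0.074) and Pdia3, a partner of tapasin, at 0.42 (standard error 0.083). Of 8 cytosolic peptidases and chaperones 3 rose. Lap3, leucine aminopeptidase, was at 11.29 and 11.00 in CCSP-p52 lungs with LPS and at 11.24 and 11.38 in WT lungs with LPS, against 10.005 and 9.76 in CCSP-p52 lungs and 9.83 and 9.88 in WT lungs on dox only. Its LPS change of 1.36 (adjusted p = 1.12e-04 from limma, standard error 0.097) was in the range of the 10 genes, and the other 2 were Tpp2 at 0.29 and Npepps at 0.27. Of 5 assembly chaperones of the proteasome 2 rose, Pomp by 0.62 (standard error 0.15) and Psmg4 by 0.49 (standard error 0.11), and of 3 other proteasome activators and inhibitors 0 were called. For p52, 0 genes of the pathway lists, regulators included, were called in any comparison. Among them only Nfkb2 reached the cut-off, over all 8 arrays (0.47, standard error 0.18), where 0.271% of all genes reached it. On dox only Nfkb2 reached it too (0.72, standard error 0.23), as did 0.733% of all genes. Whether its probe set also reads the FLAG-p52 transcript is not known. The cell type marker lists are not counted here and held further genes at the cut-off.

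**Figure D5:**
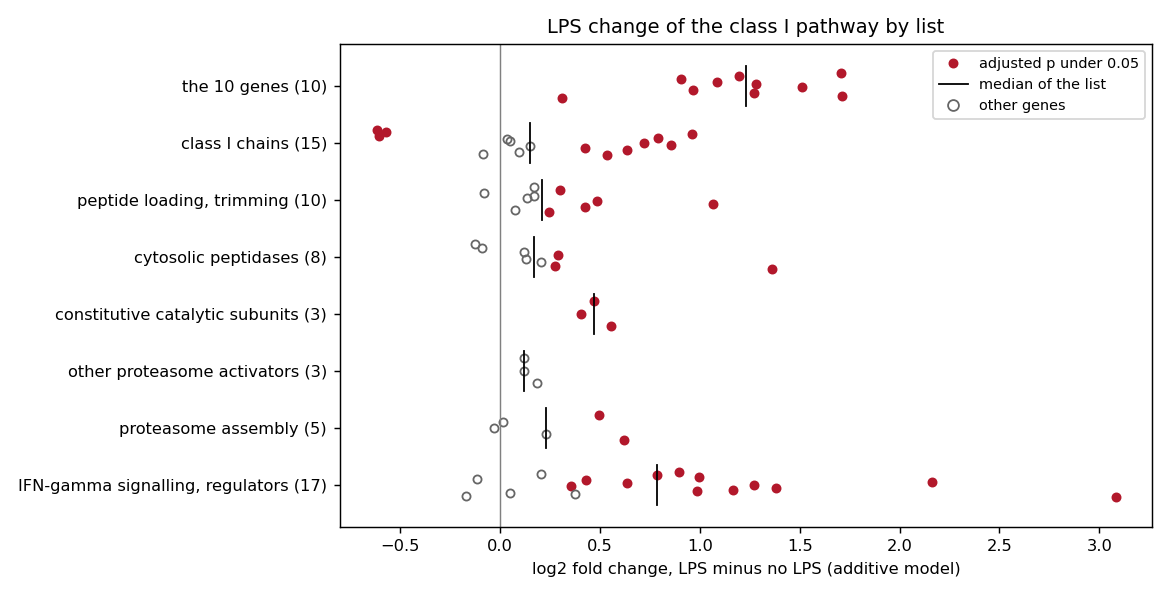
LPS change (x axis, log2 fold change of the additive limma model over 8 arrays) of each gene of the pathway by list, with the number of genes tested in brackets. Filled points passed an adjusted p under 0.05, open ones did not, and bars are list medians; the 10 genes have a median of 1.23 and the class I chains of 0.15.

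Of the other genes, 5 had the profile most like the median of the 10 over the 8 arrays, by the root mean square of the difference after centring each gene on its mean. They were Rnf213, which encodes a ubiquitin ligase, at 0.056, Plin2, which encodes a coat protein of lipid droplets, at 0.062, Grina at 0.064, Esd, an esterase gene, at 0.067 and Il13ra1, a receptor subunit gene, at 0.071 log2 units. Their LPS logFC was 1.14 to 1.33. Of the 10 themselves, Tap2, Psme2 and Psmb9 were nearest to their own median, each at 0.04, and B2m was farthest, at 0.50, with 2370 genes of the array nearer than it.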

How the data were processed

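The deposited log2 values are those of the authors, who normalized Affymetrix Mouse Gene ST arrays by Robust Multichip Average (oligo), a method that equalizes distributions between arrays. Their processing notes, as the submitters gave them, list limma 3.20.8. Scanner files were not used here. Of 35556 probe sets, 21218 (59.7%) have 1 symbol in the platform table and were tested, with current symbols through gene IDs. Whether that table is of the array version the labels name was not settled. Sequences came from RefSeq (GRCm38.p6).

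Comparisons used R 4.3.3 and limma 3.58.1 with empirical Bayes moderation: an additive model (p52 and LPS as factors, 8 arrays) and a 4-group model, with Benjamini-Hochberg adjustment over all 21218 probe sets. Arrays, 2 per condition, limit the precision. The 10 genes and the 16 pathway and marker lists were chosen with earlier results of these data known. From each list up to 4 genes with the smallest LPS p could be named, with Psmb5, Psmb6, Psmb7, Nfkb2 and the 5 nearest profiles. The cut-off for p52 takes its logFC from the study, while the p limit and both directions were added here. Socs1, Cd1d1, Mr1, Scgb3a2, Mrc1, Siglecf, the uncalled regulators and the further T and NK cell genes were named after their values were seen. Steps were tested on simulated data. Alternatives were other probe sets, models, moderation, weights, scaling and thresholds, the replicate number as a block, and each array left out. Deviations of same-numbered pools correlated at 0.14 to 0.35 over 6 pairs of conditions, which meets the rule for pairs on the values alone. The block was run as an alternative, and the main fits and exact tests have none.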

Additional observations from a re-analysis of the deposited data

How the results depend on the processing

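In the comparison of LPS over all 8 arrays, 9 or 10 of the 10 genes were called under each alternative that kept the threshold, 9 at an adjusted p under 0.01, and 7 where a logFC of at least 1 was asked as well. The median stayed between 1.16 and 1.36. With the replicate block 10 were called at a median of 1.23, and the block changed no other call of the 10 genes at the thresholds used. Within CCSP-p52 lungs, 1 gene was called for LPS at an adjusted p under 0.01 and 0 with only the 4 arrays of the comparison, and the median was 1.365 with both LPS arrays numbered 2 left out. With each array left out in turn, 0 to 9 were called there (median 0.86 to 1.365) and 2 to 9 in WT lungs. The p52 median with LPS was then -0.39 to 0.15, with 0 to 3 genes at the cut-off, and that of the difference between the p52 effects -0.45 to 0.052. These fits leave 1 pool in a group. Except where printed above, the share of all genes called under an alternative is not given here. Such counts therefore do not set the 10 genes apart from other genes. B2m passed for LPS in WT lungs (0.37, adjusted p = 0.0494 from limma) only with the arrays centred on the median. No called value changed sign, while p52 values that were not called did so under some alternatives. The cause was not tested. The number of arrays, 2 pools per condition, sets the limit, and 0.333 is the smallest exact p that 2 arrays against 2 allow.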
